A study of Rattus norvegicus with 42 samples.

Results

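Hippocampal RNA of 8 male Sprague Dawley rat pups given levetiracetam (LEV) was compared with that of 7 pups given saline vehicle (VEH). These 15 libraries, of 42 in the whole series, were chosen by their sample codes. The animals are those numbered 7 to 14 in each treatment group, whose codes carry a single letter for the treatment, and they are called the later animals here. LEV was injected intraperitoneally at 200 mg/kg on postnatal day 7. The hippocampus was taken 72 h later, on postnatal day 10, after an overdose of sodium pentobarbital and perfusion. The hour of collection varied with that of the injection. VEH animal 7, which its label marks as excluded, was left out, so that VEH animals 8 to 14 remained. All animals were wild type, received 1 injection of drug or saline on postnatal day 7, and each library came from 1 animal. Pups came from 2 orders of dams, with 1 pup per litter taken for each treatment. The labels do not name the order of each animal, and the form of the sample code is the one batch-like label. Animals 1 to 6 of each group (the earlier animals, 6 LEV and 6 VEH) and 8 later pups given phenobarbital (PB, 75 mg/kg) are used below for reference.

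LEV is an antiseizure drug that binds the synaptic vesicle protein SV2A, encoded by Sv2a, and is thought to alter transmitter release. Immediate early genes such as Fos, Arc and Npas4 are transcribed within minutes of neuronal activity and report recent firing, and the hippocampus is a tissue in which they have been studied closely. At this age the rat hippocampus is gaining its first myelin, so that transcripts of maturing oligodendrocytes are climbing from day to day.

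The later LEV libraries held 10112050 to 11519501 estimated counts and the VEH libraries 9499492 to 11911889, a difference in means that an exact two-sided permutation test over all splits of the 15 animals did not separate (p = 0.749). Markers of the hippocampus were present. Of the 13 genes on the list, 11 transcripts were counted well enough to be tested, among them Prox1 of dentate granule cells, Wfs1 of CA1 and Neurod6 of pyramidal neurons. The summed level of the 13 transcripts of the list, tested or not, was 998 to 1132 CPM (counts scaled to library size) after LEV and 1077 to 1202 CPM after VEH. Choroid plexus was carried over to a variable extent. The summed level of its 16 listed transcripts, of which 15 were tested, ran from 37.6 to 5951 CPM (median 2083) after LEV and from 31.3 to 4249 CPM (median 45.2) after VEH. It was above 1000 CPM in LEV animals 7, 8, 9, 10 and 13 and in VEH animals 8 and 14. In whole tissue, fewer cells of a type and less RNA per cell cannot be told apart.

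Few transcripts differed from VEH 72 h after a single LEV dose. Both limits of the study (a log2 fold change of 0.32 in either direction, and 0.05 for the adjusted p) were passed by 7 of 12862 tested transcripts (0.0544%). Of these, 2 rose (0.0155%) and 5 fell (0.0389%). They were 4 transcripts of ribosomal RNA loci (Rn18s, Rn28s and those annotated as LOC257642 and LOC310926, all lower), both mapped copies of Dgcr2 (1 lower, 1 higher) and the immediate early gene Npas4 (higher). Without the fold limit the same count of 7 was reached. An unadjusted p under 0.05 was found in 591 transcripts (4.59%), with 334 higher (2.6%) and 257 lower (2%) after LEV. The values of the 2 groups did not overlap in 7 transcripts (0.0544%), with 4 higher (0.0311%: Npas4, Dusp1, Fchsd1 and 1 copy of Dgcr2) and 3 lower (0.0233%: LOC310926, 1 copy of LOC257642 and the other of Dgcr2). Fchsd1 is named after its values were seen. When the excluded VEH animal was put back, the quasi-likelihood test of edgeR called 0 transcripts, with 395 at an unadjusted p under 0.05, and DESeq2 called 3 (LOC257642, LOC310926 and Npas4).

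Transcripts of ribosomal RNA were lower after LEV. These RNAs form the core of the ribosome and are processed from 1 long precursor. The paper describes mRNA sequencing with an NEBNext Ultra RNA library kit. Whether and how ribosomal RNA was depleted before sequencing is not given in the sources used here. Whether its counts follow its level in the tissue was not tested. On the rn6 build, Rn18s lies at chr14:46643222-46645094 and Rn28s at chr14:46647095-46655564, both within the precursor Rn45s at chr14:46643222-46655564. A pair of further loci were taken in by position, within 5 kb of an annotated ribosomal RNA gene or as another copy of such a transcript, a rule set after their values were seen. LOC310926 is at chr1:11907746-11914541, beside the 5.8S gene Rn5-8s, and LOC257642 is counted at chr6:30638801-30639290 and again at chr14:46588474-46651827, across the ribosomal RNA genes. Altogether 6 of the 8 transcripts at these places were tested. All 6 had a log2 fold change below 0, and 4 of them passed both limits.

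Together the 8 transcripts took 1.44% to 2.45% of all counts in the VEH animals (median 2.22%) and 0.707% to 1.74% in the LEV animals (median 0.920%). LEV animal 7 held the highest of the LEV shares and was the one LEV animal inside the VEH range. The other 7 LEV animals lay at 1.04% or below, under every VEH animal.

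Rn18s, the RNA of the small ribosomal subunit, was 3739 CPM at its lowest, 4946 at the median and 10577 at its highest after LEV, against 8349, 11293 and 11986 CPM after VEH. The groups overlapped through LEV animal 7 alone. The log2 fold change of Rn18s was -0.97 (SE 0.17, adjusted p = 0.0267 by the quasi-likelihood test of edgeR, adjusted after Benjamini and Hochberg), and all 8 LEV animals were below the VEH mean. The call was kept in 2 of the 15 fits that left out 1 animal (without LEV animal 7 or VEH animal 14) and lost in the other 13, where the adjusted p went up to 0.0858 (edgeR), and it was lost with robust dispersion (adjusted p = 0.248, edgeR) and with the choroid plexus covariate (adjusted p = 0.0678, edgeR). Rn28s, the RNA of the large subunit, ranged from 2934 CPM over a median of 3901 to 6626 after LEV and from 5511 over 10389 to 12325 after VEH. Again LEV animal 7 was the highest of its group, and it was above 1 VEH animal (animal 14). Rn28s changed by -1.26 on the log2 scale (SE 0.18, adjusted p = 0.00568, edgeR). Rn45s did not pass the limits, at 20.5 to 34.9 CPM (median 29.2) after LEV and 30.04 to 66.8 CPM (median 58.3) after VEH (log2 fold change -0.82, SE 0.17, adjusted p = 0.173, edgeR).

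The LOC257642 transcript on chromosome 6 had the largest fall of the 7 in log2 terms. Its level was 31.6 to 65.1 CPM (median 44.4) after LEV and 76.6 to 162 CPM (median 117) after VEH, and no LEV animal reached the lowest VEH animal (log2 fold change -1.29, SE 0.17, adjusted p = 0.00533, edgeR). Its second copy, on chromosome 14, overlapped between the groups, with medians of 65.2 and 146 CPM (log2 fold change -0.94, SE 0.21, adjusted p = 0.333, edgeR). Reads of 1 kind can be assigned to either copy, and with both summed the fall was -1.08 (SE 0.17, adjusted p = 0.0190, edgeR). LOC310926, with 27 to 72 counts per LEV library and 75 to 120 per VEH library, was at 2.58 to 6.24 CPM (median 4.03) after LEV and 7.23 to 10.3 CPM (median 8.47) after VEH. Here too every LEV animal was below every VEH animal (log2 fold change -1.11, SE 0.15, adjusted p = 0.00533, edgeR).

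**Figure D1:**
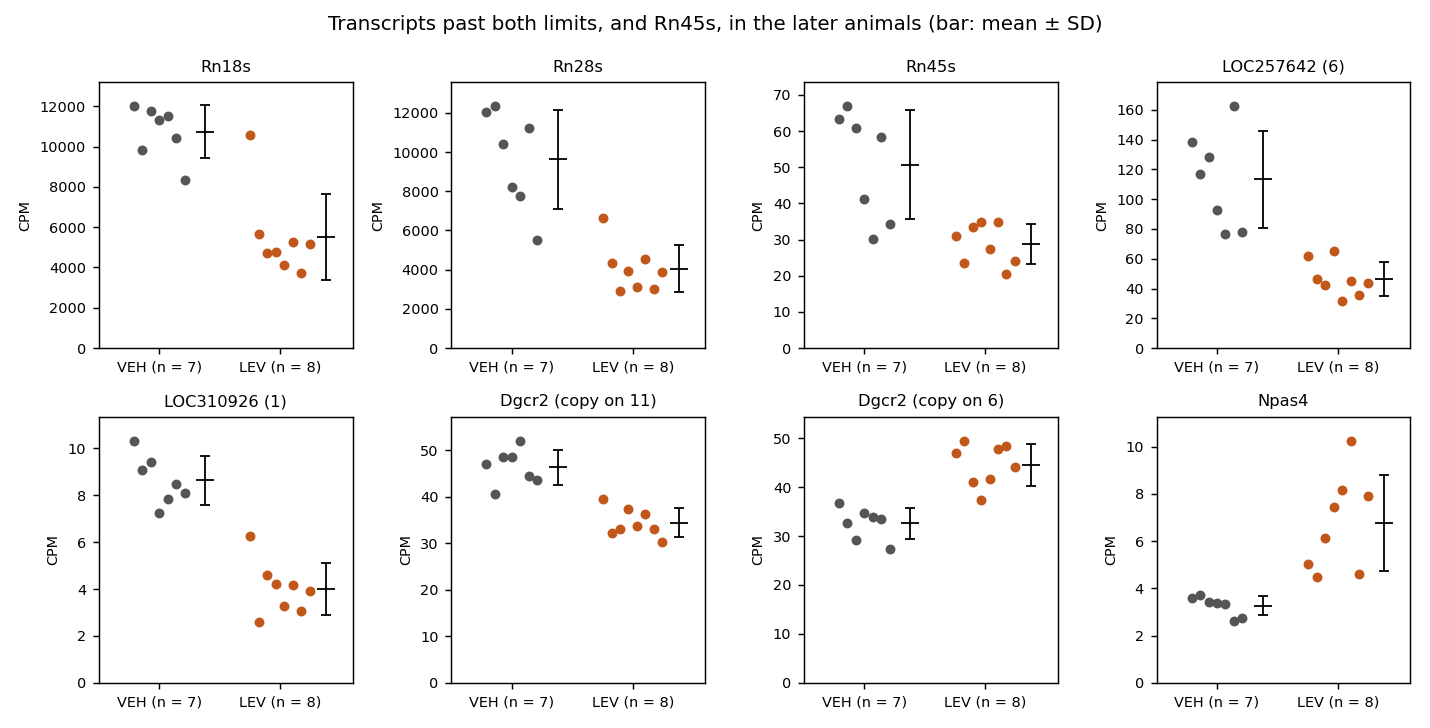
Level (CPM, linear axes from 0) of the 7 transcripts past both limits and of Rn45s in each later animal, VEH in grey (n = 7) and LEV in orange (n = 8), with the mean ± SD beside the points. Ribosomal RNA transcripts are lower after LEV, with LEV animal 7 (first orange point) inside the VEH range for Rn18s at 10577 CPM, the copies of Dgcr2 move in opposite directions, and Npas4 does not overlap between the groups.

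For reference, the same transcripts in the later PB animals, compared with the same VEH animals, changed by -0.63 (Rn18s, adjusted p = 0.0186), -0.88 (Rn28s, adjusted p = 0.0170) and -1.18 (LOC257642 on chromosome 6, adjusted p = 0.00661), all by edgeR. LEV and PB share their VEH animals, so these values do not check each other. In the earlier animals, which share none, the ribosomal RNA share of counts was higher in every group and did not separate LEV from VEH, at 2.95% to 10.0% after LEV and 2.75% to 8.54% after VEH. The excluded VEH animal held 6.50%. The effect of LEV differed between the later and the earlier animals for Rn18s (difference of log2 fold changes -0.92, SE 0.22, adjusted p = 0.0406, edgeR) and for LOC310926 (-1.0, SE 0.25, adjusted p = 0.0440, edgeR), while for Rn28s the test did not separate them (-1.13, SE 0.45, adjusted p = 0.254, edgeR). Genes for the proteins of the ribosome gave no calls. Of 30 tested transcripts of cytosolic ribosomal proteins, 0 reached an unadjusted p under 0.05 in either direction, so that 0 were past both limits, and their median log2 fold change was -0.03.

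Dgcr2, a membrane receptor gene named for the DiGeorge region, was counted at 2 places under 1 transcript identifier, at chr11:87242441-87290807 and at chr6:138353317-138401705. The copy on chromosome 11 was 30.3 to 39.5 CPM (median 33.4) after LEV and 40.6 to 52.0 CPM (median 47.0) after VEH, and fell by 0.43 on the log2 scale (SE 0.06, adjusted p = 0.00694, edgeR). The copy on chromosome 6 was 37.4 to 49.4 CPM (median 45.6) after LEV and 27.4 to 36.7 CPM (median 33.4) after VEH, and rose by 0.45 (SE 0.07, adjusted p = 0.0216, edgeR). For neither copy did the groups overlap. Their sum was alike in both groups, with medians of 78.3 CPM after LEV and 77.8 CPM after VEH (log2 fold change 0.003, SE 0.05, adjusted p = 0.997, edgeR on counts summed per symbol). What differed was the division of reads between the copies, with 50% to 60.5% of Dgcr2 assigned to chromosome 6 in the LEV animals and 37.6% to 44.5% in the VEH animals. This share was 36.8% to 62.1% in the later PB animals and, in the earlier animals, 47.1% to 55.7% after LEV and 45.0% to 61.9% after VEH.

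Immediate early genes were the second group with a member past both limits. Of 28 tested transcripts of 23 genes, 1 rose (Npas4) and 0 fell. An unadjusted p under 0.05 was reached by 6 (Npas4, Arc, Fos, Dusp1, Nr4a1 and Egr1), all 6 higher after LEV, against 2.6% of all tested transcripts in that direction. The median of the list was 0.03, beside -0.003 for all tested transcripts, so most of its members did not follow the 6.

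Npas4, a transcription factor induced by neuronal calcium entry that regulates inhibitory synapses, lies at chr1:220261008-220265773 of rn6. It had 47 to 106 counts per LEV library and 28 to 42 per VEH library. Its level was 4.49 CPM at its lowest, 6.80 at the median and 10.2 at its highest after LEV, against 2.63, 3.36 and 3.71 CPM after VEH. The lowest LEV animal was above the highest VEH animal, and the LEV animals spread more widely (SD 2.03) than the VEH animals (SD 0.41). The log2 fold change of Npas4 was 1.05 (SE 0.18, adjusted p = 0.0267, edgeR). This call was close to the limit. It was kept without LEV animal 7, 8, 12 or 13 and lost without any other of the animals (adjusted p 0.0150 to 0.0968 over the 15 fits), and it was lost with all ribosomal RNA transcripts removed (adjusted p = 0.0567, edgeR), where its log2 fold change was 1.05 again.

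Fos, the transcription factor most used as an activity marker, was 6.58 to 8.01 CPM (median 7.68) after LEV and 3.52 to 7.14 CPM (median 4.21) after VEH. VEH animals 10 and 13 reached the LEV range and the other 5 VEH animals did not (log2 fold change 0.60, SE 0.14, adjusted p = 0.396, edgeR). Arc, whose protein acts at the synapse on receptor uptake, was 39.5 to 64.4 CPM (median 53.5) after LEV and 37.8 to 43.5 CPM (median 40.8) after VEH. LEV animal 7 was the 1 LEV animal within the VEH range of Arc (log2 fold change 0.38, SE 0.08, adjusted p = 0.204, edgeR), and without that animal Arc passed both limits (adjusted p = 0.00443, edgeR). DESeq2 called Arc with all 15 animals.

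Dusp1, a phosphatase that ends MAP kinase signalling, was 18.0 to 24.8 CPM (median 19.0) after LEV and 14.6 to 18.0 CPM (median 17.2) after VEH. Its groups did not overlap by a narrow margin, and its log2 fold change of 0.27 (SE 0.08) had an adjusted p of 0.979 by edgeR. Nr4a1, an orphan nuclear receptor, had medians of 32.8 and 26.4 CPM and a log2 fold change of 0.21 (SE 0.08). Egr1, a zinc finger transcription factor, had medians of 40.9 and 34.1 CPM and a log2 fold change of 0.22 (SE 0.09). For both the groups overlapped.

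**Figure D2:**
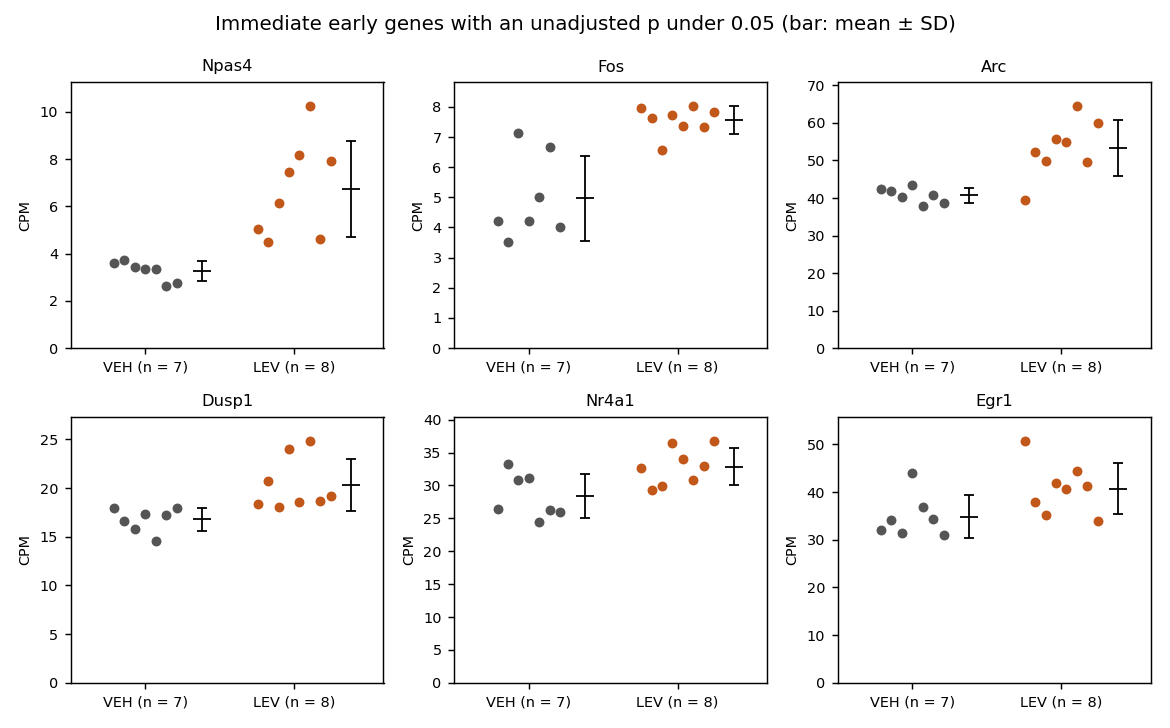
Level (CPM, linear axes from 0) of the 6 immediate early genes with an unadjusted p under 0.05, in each later animal (VEH grey, n = 7; LEV orange, n = 8), with the mean ± SD beside the points. The groups are apart for Npas4 (lowest LEV animal 4.49 CPM, highest VEH animal 3.71 CPM) and narrowly for Dusp1, and overlap for the other 4.

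Other members of the list were close to VEH. Jun (log2 fold change 0.02), Homer1 (-0.01), Dusp6 (-0.01), Nr4a3 (-0.04), Egr4 (-0.05) and Nptx2 (-0.08) lay within 0.1 of 0, and Egr3 (-0.11) and the 6 tested transcripts of Bdnf, whose reads are shared among them, gave no unadjusted p under 0.05. In the earlier animals the log2 fold change of LEV against VEH was 0.18 for Npas4 (SE 0.20), 0.30 for Fos (SE 0.21), 0.09 for Arc (SE 0.10) and 0.25 for Nr4a1 (SE 0.07). The earlier VEH animals had 3.88 to 10.6 CPM of Npas4, a range that takes in all 8 later LEV animals. The test of the difference between the series did not separate them for any of the 6 genes (adjusted p 0.149 for Npas4, by edgeR, and higher for the others). In the later PB animals, against the shared VEH animals, the change was 0.72 for Npas4 (adjusted p = 0.0330, edgeR), 0.49 for Fos and 0.15 for Arc. Of 16 tested transcripts of the circadian clock, 0 reached an unadjusted p under 0.05. The labels do not give the hour of collection of each animal. Its part in these values, and that of the pentobarbital overdose, was not tested.

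Promoter sequence is shown for Npas4 and Dusp1, the 2 immediate early genes whose groups did not overlap, and for Nr4a1 beside them. The sequences are those of RefSeq on the GRCr8 build, which differs from the rn6 build of the counts, and 18 of the 23 immediate early genes were in that table. In the 250 bases before the annotated start, the full cAMP response element (TGACGTCA), to which CREB binds, was found on either strand in 3 of the 18 and in 1.59% of all 33469 promoters of the table. Its shorter core (TGACG, counted also where it is part of the full element) was found in 11 of the 18 and in 18.2% of all. For Npas4 (chr1:211716233-211716352, minus strand, the first 120 of the 250 bases) the capitals mark TATATAA, found on either strand in 2 of the 18 and in 3.42% of all promoters. For Dusp1 (chr10:17184603-17184852, plus strand, 250 bases) they mark the full element and for Nr4a1 (chr7:134259888-134260137, plus strand, 250 bases) the 4 matches to the core, all read on the opposite strand (CGTCA). Each is written 5′ to 3′ on the strand of its gene.
Npas4: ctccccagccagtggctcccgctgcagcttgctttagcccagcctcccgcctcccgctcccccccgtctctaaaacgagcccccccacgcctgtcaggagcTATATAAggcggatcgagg
Dusp1: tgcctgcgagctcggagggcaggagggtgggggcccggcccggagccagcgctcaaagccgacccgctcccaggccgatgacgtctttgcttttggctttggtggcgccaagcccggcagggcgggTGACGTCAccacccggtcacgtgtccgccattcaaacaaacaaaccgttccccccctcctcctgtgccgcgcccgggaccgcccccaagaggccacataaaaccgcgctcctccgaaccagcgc
Nr4a1: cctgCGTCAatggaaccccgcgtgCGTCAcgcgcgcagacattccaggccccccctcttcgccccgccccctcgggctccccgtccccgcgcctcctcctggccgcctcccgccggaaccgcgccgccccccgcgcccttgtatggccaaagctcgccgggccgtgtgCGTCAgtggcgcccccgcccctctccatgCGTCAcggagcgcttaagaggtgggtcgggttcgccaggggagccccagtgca
The printed parts hold 3 matches to the core for Dusp1 and 4 for Nr4a1. In Dusp1 the full element is counted once on each strand, so its 3 matches are not 3 separate sites. For Npas4 the stretch nearest the start is not shown, so its count is not comparable, and whether its annotated start is the one used in these cells was not tested. The matches are letters in a window and not evidence of binding.

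The target of the drug did not differ between the groups beyond the spread between animals. Sv2a was 490 to 615 CPM (median 567) after LEV and 511 to 588 CPM (median 565) after VEH, with a log2 fold change of -0.01 and a 95% confidence interval of -0.11 to 0.09. Its paralogs Sv2b (log2 fold change -0.02, interval -0.16 to 0.13) and Sv2c (0.10, interval -0.25 to 0.45) and the vesicle calcium sensors Syt1 (0.04, interval -0.09 to 0.18) and Syt2 (0.19, interval -0.19 to 0.56) did not pass either. Around the target, 0 of 28 transcripts of the vesicle release machinery reached an unadjusted p under 0.05, and their median log2 fold change was -0.02. Of all tested transcripts, 2.6% were higher and 2% lower at an unadjusted p under 0.05. Of 13 transcripts of presynaptic calcium channels, 2 reached that limit, both higher. Among 30 transcripts of ionotropic glutamate receptors there were 2 higher and 2 lower at that limit, and among 13 of GABA-A receptor subunits 1 lower (Gabra5, log2 fold change -0.11). The AMPA receptor gene Gria3 had 1 transcript on each side, at -0.13 and 0.38, and its summed count was at -0.05 (SE 0.06).

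Transcripts of myelin and mature oligodendrocytes were higher after LEV as a list without any member passing the limits. All 20 tested transcripts of 15 genes had a log2 fold change above 0, with a median of 0.48 against -0.003 for all tested transcripts. An unadjusted p under 0.05 was reached by 14 of the 20, against 2.6% of all tested transcripts in that direction. In the other direction it was reached by 0, against 2%. Adjusted over all transcripts 0 passed, the closest being Mag at an adjusted p of 0.786 (edgeR). The list holds 6 transcripts of Mbp, whose reads are shared among them, so that its members are not independent. With the excluded VEH animal included, 6 of the 20 had an unadjusted p under 0.05 and the median was 0.27, and in a fit of all 41 animals 9 had.

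Mag, an adhesion molecule of the innermost myelin layer, was 45.2 to 76.6 CPM (median 58.9) after LEV and 27.4 to 58.6 CPM (median 44.9) after VEH (log2 fold change 0.55, SE 0.14). The groups overlapped, although all 8 LEV animals lay above the VEH mean. Mbp, the myelin basic protein, summed over its 6 transcripts, was 472 to 794 CPM (median 676) after LEV and 309 to 713 CPM (median 429) after VEH (log2 fold change 0.50, SE 0.15, adjusted p = 0.981, edgeR). VEH animal 12 was the highest VEH animal for the list as a whole. Mal (1.03, SE 0.31), of compact myelin, and Opalin (0.89, SE 0.36), an oligodendrocyte transmembrane protein, had the largest log2 fold changes at levels of a few CPM. Cldn11, which forms the tight junctions of myelin, was at 0.57 (SE 0.18).

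Earlier stages of the lineage gave smaller values. The 13 tested transcripts of oligodendrocyte precursors had a median log2 fold change of 0.09. An unadjusted p under 0.05 was reached by 3, all higher, against 2.6% of all tested transcripts in that direction. They were the lineage transcription factors Olig2 (0.20, SE 0.06) and Sox10 (0.19, SE 0.08) and the receptor Gpr17 (0.20, SE 0.07), which marks cells about to differentiate. On the oligodendrocyte list of the study, 16 of 104 tested transcripts were higher and 1 lower at that limit. Of all tested transcripts 2.6% were higher and 2% lower, and on the study's list 0 passed both limits. With the excluded VEH animal included, 1 of the 13 precursor transcripts was at that limit, their median was -0.013 and Gpr17 was at -0.063, and on the study's list 8 were higher. The summed myelin list was 1400 to 2153 CPM (median 1896) after LEV and 1085 to 1996 CPM (median 1266) after VEH, so that the groups overlapped. In the earlier animals its median log2 fold change was 0.18 and the difference between the series passed for 0 of its members.

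**Figure D3:**
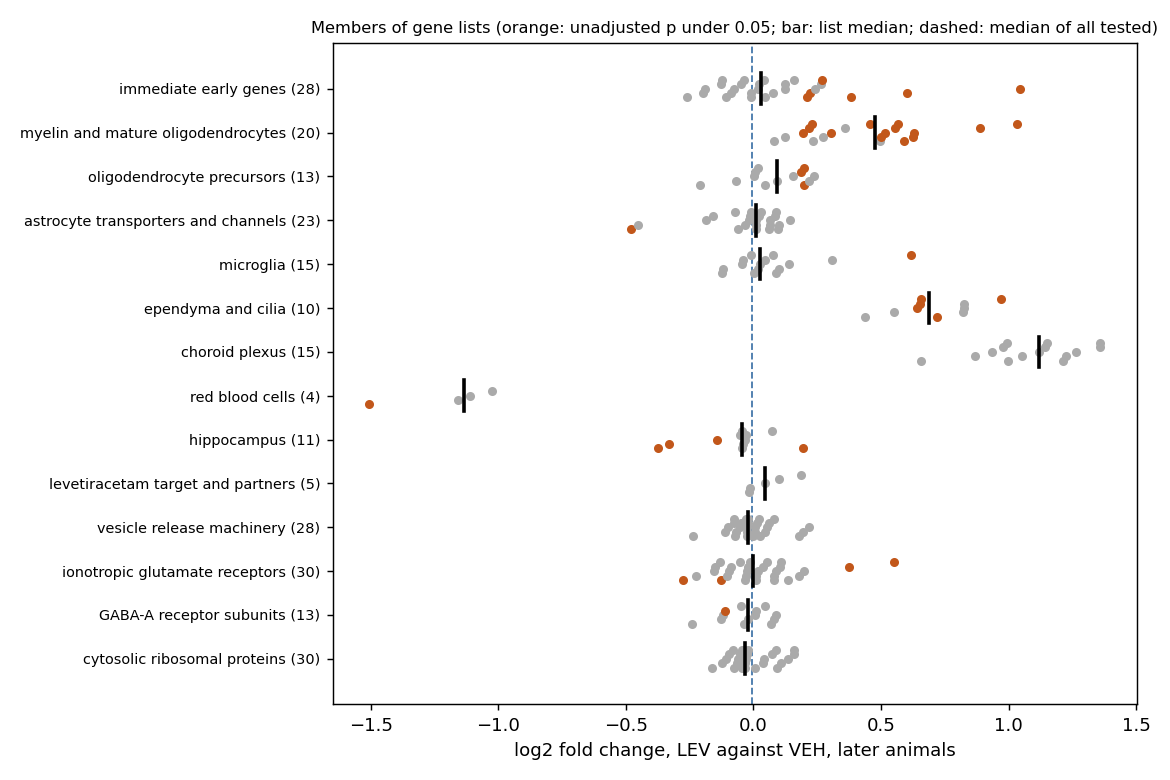
Log2 fold change of LEV against VEH in the later animals (x axis) for the tested members of 14 gene lists (rows, with the number of members in brackets), orange where the unadjusted p was under 0.05, with the list median as a black bar and the median of all tested transcripts (-0.003) as a dashed line. The lists of myelin (median 0.48), ependyma (0.69) and choroid plexus (1.12) lie to the right and red blood cells (-1.13) to the left, and the synaptic lists sit around 0.

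Levels of choroid plexus and ependyma markers, from tissue next to the hippocampus, were also uneven between the groups, without any passing the limits. Of the 15 tested choroid plexus transcripts, all had a log2 fold change above 0 (median 1.12) but 0 had an unadjusted p under 0.05, given the spread between animals. Ttr, the thyroid hormone carrier that choroid plexus secretes, ran from 1.83 to 4964 CPM (median 1730) after LEV and from 1.09 to 3525 CPM (median 8.99) after VEH. All 10 tested transcripts of ependyma and cilia, the lining of the ventricle, were above 0 (median 0.69). An unadjusted p under 0.05 was reached by 5, all higher, against 2.6% of all tested transcripts in that direction. Among them was Foxj1, the regulator of motile cilia (0.72, SE 0.33), and 0 passed both limits. The 5 became 2 with the excluded VEH animal included, 1 without LEV animal 8 or VEH animal 9, 10 or 11, 2 without LEV animal 9 or 10 or VEH animal 12 or 13, 3 without LEV animal 13, and 9 without VEH animal 8 or 14. Of 14 meningeal transcripts 2 were higher at that limit, while 8 neocortical transcripts had 4 above and 4 below 0 (median -0.02), and 4 of 4 red cell transcripts were below 0, with 1 at that limit (Hba-a2, log2 fold change -1.50).

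Across the LEV animals, the highest choroid plexus sums (5926 and 5951 CPM, animals 8 and 9) came with myelin sums of 2068 and 2153 CPM, the latter the highest of all 15 animals. LEV animal 14, with 64.1 CPM of choroid plexus transcripts, had 2105 CPM of myelin transcripts, and LEV animal 11, with 77.4 CPM, had 1525 CPM. LEV animal 13, with 2609 CPM of choroid plexus transcripts, had the lowest LEV myelin sum, 1400 CPM. Among the VEH animals, the highest myelin sum (1996 CPM, animal 12) came with 43.5 CPM of choroid plexus transcripts. With the choroid plexus level as a covariate, 13 of the 20 myelin transcripts had an unadjusted p under 0.05 and the median was 0.37, while for ependyma and cilia 1 of 10 remained at that limit and the median was 0.29.

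**Figure D4:**
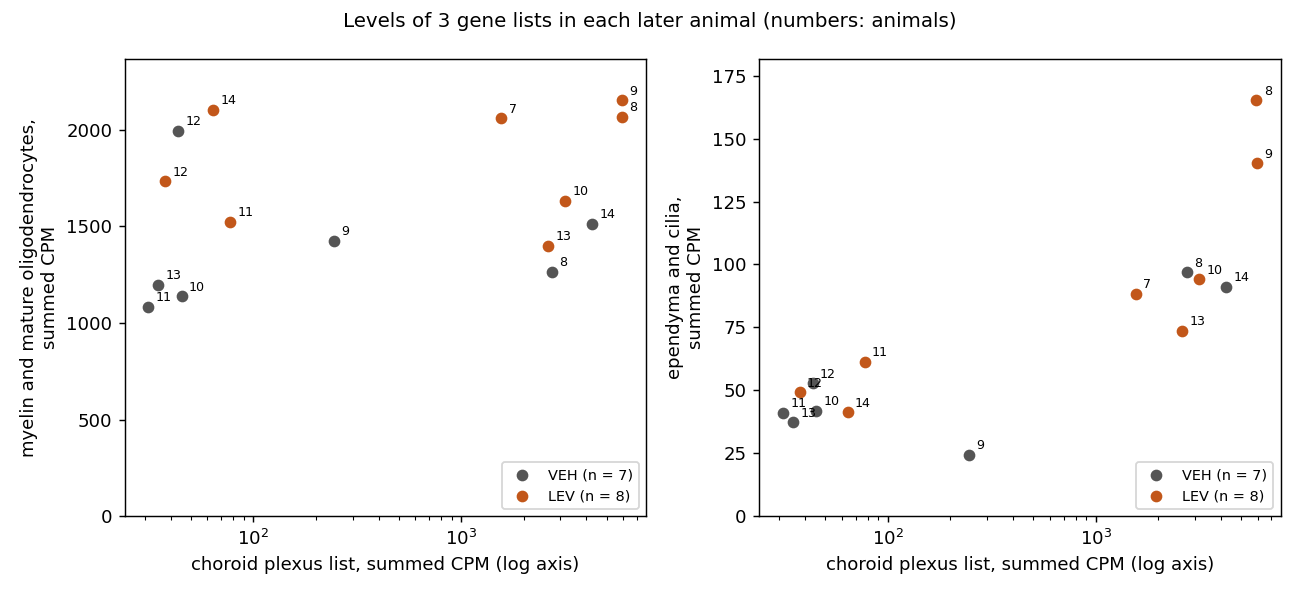
Summed level (CPM) of the myelin list (left) and of the ependyma and cilia list (right) against that of the choroid plexus list (log axis) in each later animal, labelled by its number, VEH in grey (n = 7) and LEV in orange (n = 8). Myelin levels of 1996 to 2153 CPM occur both at low choroid plexus levels (LEV animal 14, VEH animal 12) and at high ones (LEV animals 7, 8 and 9), and ependyma transcripts are high where choroid plexus transcripts are.

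Of 11 tested marker transcripts of the hippocampus, 9 were below 0, and 3 were lower and 1 higher at an unadjusted p under 0.05, beside 2% lower and 2.6% higher of all tested transcripts. Their median log2 fold change was -0.04. Wfs1, of CA1 pyramidal cells, was 53.9 to 79.9 CPM (median 66.9) after LEV and 59.8 to 97.9 CPM (median 94.0) after VEH (log2 fold change -0.33, SE 0.12). The groups overlapped, with all 8 LEV animals below the VEH mean. Zbtb20 (-0.37, SE 0.15), a transcription factor of hippocampal identity, and Neurod6 (-0.14, SE 0.06) were also lower and Man1a1 (0.20, SE 0.07) higher, and 0 of the 4 passed both limits. Of 15 microglial transcripts 1 was higher at that limit (Cd68, a lysosomal marker of phagocytes, 0.62), and of 23 astrocyte transcripts 1 was lower (a minor transcript of Slc1a3, -0.48).

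Of the genes that the study named as changed by LEV over all its animals, 15 transcripts were tested. That list was chosen in part on these libraries and is not independent evidence of direction. In the later animals 3 of the 15 passed both limits (Npas4 higher, LOC310926 and Rn18s lower). An unadjusted p under 0.05 was reached by 8, of which 4 were higher and 4 lower, beside 2.6% higher and 2% lower of all tested transcripts. Among the 8 were Fos and Tpcn2, a lysosomal ion channel (log2 fold change 0.31, SE 0.11). The astrocyte sodium bicarbonate carrier Slc4a4 (0.09, SE 0.09) and the glutamate transporter Slc1a2 (-0.07 and 0.06 for its 2 transcripts on the list) were close to 0 in these animals. Dnmt3a, a DNA methyltransferase, was at 0.59 (SE 0.33) for 1 of its 2 transcripts and 0.21 (SE 0.08) for both summed. Hfe (0.34, SE 0.68), Cpne9 (0.18, SE 0.22) and Pramef8 (-0.37, SE 0.19) did not pass. For Hfe the paper lists its largest fall after LEV, whereas here the value was above 0 with a wide error.

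Next to the called transcripts, the 17 with the smallest p after them had adjusted p values from 0.173 to 0.881 by edgeR, with 10 higher and 7 lower after LEV. Besides Rn45s, Arc, Fos, Mag and 1 transcript of Mbp they included the myosin Myh9 (0.31, SE 0.08), the neuronal chromatin component Ss18l1 (0.35, SE 0.09), the methyltransferase Icmt (0.26, SE 0.07), and the scavenger receptor Ssc5d (0.36, SE 0.10). Lower were Rab40b (-0.22, SE 0.06), the DNA repair enzyme Ogg1 (-0.38, SE 0.10) and Tmem79 (-1.0, SE 0.22). Besides Mbp, for 4 of the 17 the value belonged to 1 transcript among others of its gene that share reads, and was smaller or turned when they were summed. Arhgap17 had a log2 fold change of -2.20 (SE 0.50) in a transcript of 0 to 18 counts per LEV library, and 0.15 (SE 0.10) with its 4 transcripts summed. Lrrc23 was at 0.91 (SE 0.21) in 1 transcript and 0.51 (SE 0.18) with both summed. The zinc finger gene Zfp384 was at 0.48 (SE 0.13) in 1 of 3 and 0.02 (SE 0.04) in sum, and Nit1 at -0.27 (SE 0.06) in 1 of 4 and -0.10 (SE 0.06) in sum.

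The effect of LEV was also compared between the 2 sets of animals. In the earlier animals 190 transcripts passed both limits (1.47% of 12911), 30 higher (0.232%) and 160 lower (1.24%) after LEV. Tested directly, the log2 fold change differed between the later and the earlier animals for 123 of 13218 transcripts (0.931%). The count was 4 with the excluded VEH animal included, and it ran from 69 without VEH animal 11 to 247 without VEH animal 10 when 1 animal was left out. It was more positive in the later animals for 108 of them (0.817%) and more negative for 15 (0.113%). The fold was larger in the earlier animals for 117 of the 123, and an unadjusted p under 0.05 was found for 120 in the earlier animals and for 33 in the later ones.

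On the list of astrocyte transporters and channels 8 of 23 tested transcripts were among the 123, and on the study's astrocyte list 28 of 417. Of all transcripts in that test the share was 0.931%. Transcripts of the same gene are not independent in such counts. Among the 123, Aqp4 had a pair of transcripts with identical values (difference 0.44 for each). Slc1a3 had transcripts of opposite sign (0.44 and -1.61). Kcnj10, which had the smallest p of the 123 and is the potassium channel with which astrocytes buffer potassium, was 21.3 to 31.6 CPM (median 28.2) after LEV and 22.8 to 27.7 CPM (median 25.8) after VEH in the later animals. In the earlier animals it was 14.5 to 17.7 CPM (median 15.5) after LEV and 23.7 to 31.3 CPM (median 25.4) after VEH. The VEH animals of both sets were alike, and the earlier LEV animals alone were low (difference of log2 fold changes 0.84, SE 0.11, adjusted p = 0.000278, edgeR). Slc1a3, an astrocyte glutamate transporter, behaved likewise in its main transcript (later log2 fold change 0.01, earlier -0.42, difference 0.44, SE 0.06), as did Slc4a4 (0.09, -0.92 and 1.01, SE 0.15). The earlier LEV median was also the lowest for Slc1a2 (0.06, -0.91 and 0.97, SE 0.20) and the matrix proteoglycan Ncan (0.08, -0.43 and 0.51, SE 0.07). Their VEH medians differed between the sets, at 134 CPM later and 170 CPM earlier for Slc1a2. For Ncan they were 803 CPM later and 928 CPM earlier. Gpr17 was at 0.20 in the later and -0.46 in the earlier animals (difference 0.66, SE 0.10, adjusted p = 0.00106, edgeR). The order, the time of processing and any other difference between the 2 sets of animals cannot be told apart.

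**Figure D5:**
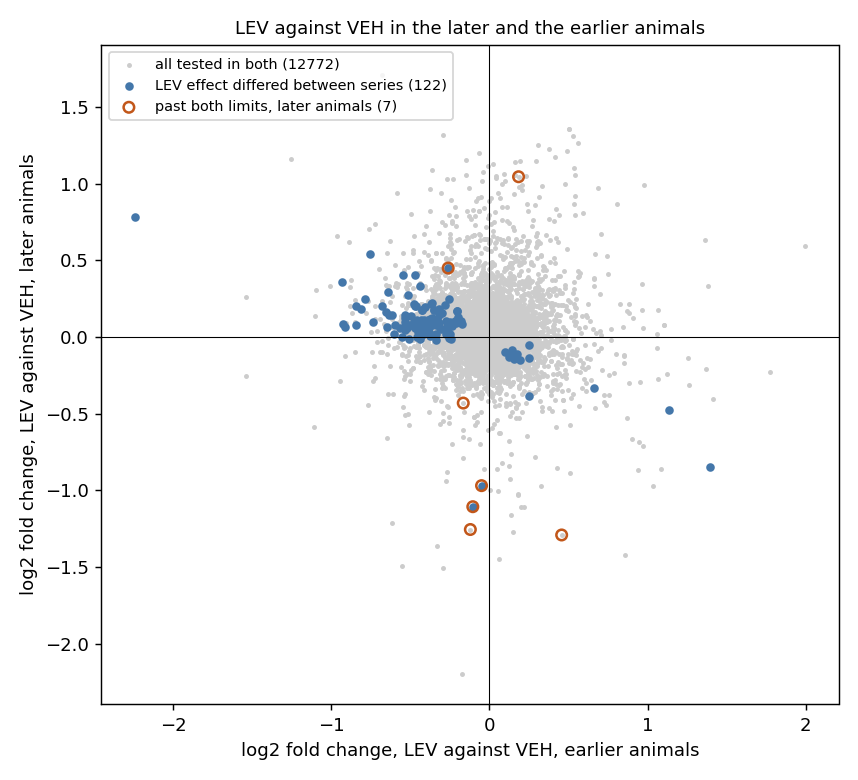
Log2 fold change of LEV against VEH in the later animals (y axis) against that in the earlier animals (x axis) for 12772 transcripts tested in both, with blue points for the 122 of them whose LEV effect differed between the sets and open orange circles for the 7 transcripts past both limits in the later animals. Blue points gather at negative values in the earlier animals and near 0 in the later ones, and there is no cloud along the diagonal (Pearson's r -0.09 across transcripts).

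Across the 12772 transcripts tested in both sets, which are not independent replicates and share no animal, the log2 fold changes had a Pearson's r of -0.09 and a Spearman's rho of -0.15. The sign was the same for 42.8% of all transcripts. It was the same for 38 of the 188 transcripts called in the earlier animals and tested in the later ones (20.2%), and for 5 of the 7 called in the later animals, with LOC257642 on chromosome 6 and the Dgcr2 copy on chromosome 6 as the exceptions.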

How the data were processed

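Reads were trimmed by the authors, mapped to the rn6 build with STAR 2.7.3a and assigned to RefSeq transcripts by expectation maximization in Partek Flow. The deposited expected counts are these estimates before normalization, 42 columns by 15516 transcripts, of which 13.7% of values were not whole. They were rounded here. The authors' deposited comparisons (DESeq2 p values, fold changes and group means) were not used.

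The 8 LEV and 7 VEH libraries were fitted alone in R 4.3.3 with edgeR 4.0.16 (TMM, filterByExpr, glmQLFit, glmQLFTest), with Benjamini-Hochberg adjustment over 12862 transcripts. Both limits were those of the study, 0.05 for the adjusted p and 0.32 for the log2 fold change in either direction. Standard errors were derived from the F statistic. The difference between the later and earlier animals was an interaction in 1 fit of 27 libraries. CPM were scaled with TMM over 41 animals. Replicates are separate animals, and in none of the 49 pairs of libraries compared did the 2 agree within sampling noise. Precision at low levels is limited by the counts, 9499492 to 11911889 per library.

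Named transcripts were those past both limits, the next by p up to 24, the LEV list of the study, the drug target and its partners, and up to 4 per list. Members of the immediate early, myelin, precursor, ependyma and hippocampus lists with an unadjusted p under 0.05, and the leading transcripts of the difference between the sets, were added afterwards. Some transcripts that the rule takes in are not reported here, and list members that add nothing are given as counts. The comparison, the lists and the rules were chosen with earlier results of these data known. The statistics were tested on simulated data. Alternatives were DESeq2 1.42.0, limma 3.58.1 (voom), other scalings and filters (none, or a mean of 50 counts), other sets of animals, the animal number as a block, a choroid plexus covariate, sums per symbol and each animal left out. Removal of all ribosomal RNA transcripts was added after seeing the data, as were the covariate and the omission of LEV animal 7 for the lists. Other assays of the study were not analysed here.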

Additional observations from a re-analysis of the deposited data

Results flagged for a closer look

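Single animals stood apart from the others of their group (Dixon's test at the 95% level) in 9 of 102 groups of values examined, where chance flags about 1 in 20. LEV animal 7 accounted for 4 of them, all of the same kind. Its Rn18s was 10580 CPM with the next LEV animal at 5648 CPM, its Rn28s was 6626 CPM with the next at 4524 CPM, its summed ribosomal RNA transcripts were 17420 CPM with the next at 10118 CPM, and their share of its counts was 1.74% with the next at 1.04%. Without LEV animal 7, 8 transcripts passed both limits, the 7 named before and Arc.

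LEV animal 12 was low for Myh9 (66.8 CPM, next 89.7 CPM) and high for Syt2 (9.17 CPM, next 6.18 CPM), and it was also the LEV animal with the highest Npas4. VEH animal 12 was high for 1 transcript of Mbp (262 CPM, next 170 CPM), and without it that transcript passed both limits. VEH animal 9 was low for Sv2c (3.32 CPM, next 5.74 CPM), and VEH animal 13 was high for the summed astrocyte transporters and channels (8238 CPM, next 7720 CPM).

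The effect of LEV differed between the later and the earlier animals, by the interaction test of edgeR at an adjusted p under 0.05, for these named transcripts. The difference of log2 fold changes, later minus earlier, was 0.84 for Kcnj10, 0.51 for Ncan, 0.44 for Slc1a3 (main transcript), 1.01 for Slc4a4, 0.56 for the heparan sulfate enzyme Ndst1, 0.66 for Gpr17, 0.51 for Zhx3, 0.71 for the Dgcr2 copy on chromosome 6, 0.94 for Sox6 and 0.97 for Slc1a2. It was -1.61 for the minor Slc1a3 transcript, -0.99 for Wfs1, -0.63 for Ogg1, -0.92 for Rn18s and -1.0 for LOC310926. Wfs1 was lower after LEV in the later animals (-0.33) and higher in the earlier ones (0.66), and the minor Slc1a3 transcript likewise (-0.48 and 1.13).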

How the results depend on the processing

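With both limits, and with the adjusted p alone, 7 transcripts passed. DESeq2 gave 11 in each case (the 7 with Arc, Arhgap17, Lrrc23 and Rn45s), limma-voom 5, and removal of all ribosomal RNA transcripts 2 (the copies of Dgcr2). With the excluded VEH animal included the count was 0 by edgeR's quasi-likelihood test, with 395 at an unadjusted p under 0.05, and 3 by DESeq2. Leaving out 1 animal gave 4 to 8, with 4 when VEH animal 9, 10 or 13 was left out. LOC310926, Rn28s, LOC257642 on chromosome 6 and Dgcr2 on chromosome 11 passed in 15 of 15 such fits, Dgcr2 on chromosome 6 in 11, Npas4 in 4 and Rn18s in 2 (without LEV animal 7 or VEH animal 14). Rn28s was not called with robust dispersion. In the fit of all 41 animals neither Rn28s nor LOC257642 on chromosome 6 was called. Animals with the same number did not vary together (r -0.35 to 0.25 over 7 pairs, 2 above 0.1, 0 with its own number as best match). With the animal number as a replicate block 5 passed with both limits and 5 with the adjusted p alone, without Npas4 and the Dgcr2 copy on chromosome 6. The difference between the later and earlier animals covered 123 transcripts, 243 by DESeq2 and 4 with the excluded animal. Leaving out 1 animal gave 69 to 247, which were 81, 73, 74 and 72 without LEV animals 7, 9, 10 and 14 and 74, 247 and 69 without VEH animals 9, 10 and 11. The cause of these moves was not tested. Other counts of transcripts past the limits stayed within 1.5 times. Counts of list members at an unadjusted p under 0.05 moved further, and the ependyma and cilia list went from 5 to 1 by limma-voom and to between 1 and 9 without 1 animal.

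Among the 7 called transcripts, the sign turned for Dgcr2 alone, where its copies were summed. For other transcripts it turned as well. With the excluded animal the log2 fold change was -0.042 for Slc4a4, -0.011 for Hfe, -0.25 for Slc1a2, 0.067 for Sv2b, -0.089 for Sv2c, -0.054 for Myrf and -0.063 for Gpr17. With the choroid plexus covariate it was -0.40 for Hfe, 0.0089 for Sv2b and 0.010 for Sv2a, and by limma-voom 0.013 for Sv2a. Summed per symbol it was 0.0026 for Dgcr2, 0.15 for Arhgap17 and 0.047 for Slc1a2. Leaving out 1 animal, it ran from -0.033 to 0.014 for Sv2a, from -0.070 to 0.019 for Sv2b, from -0.00039 to 0.93 for Hfe and from -0.013 to 0.13 for the larger Slc1a2 transcript. Of 972 values for 66 transcripts under the alternatives that keep all animals or change their set, 930 kept both sign and side of the limits. Most of the 66 were not called to begin with. Of the 7 called, LOC310926 passed in 13 of 14 alternatives, LOC257642 on chromosome 6 in 12 of 14 and Rn28s in 11 of 14. Rn18s passed in 10 of 13 and Npas4 in 11 of 15. Dgcr2 passed in 13 of 15 on chromosome 11 and in 10 of 15 on chromosome 6.

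Transcripts of a few counts, such as Arhgap17, and copies that share reads, such as Dgcr2, carry errors of assignment that the standard errors do not cover.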

Other observations

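Several gene groups not described above were close to VEH. Oxidative phosphorylation (22 tested transcripts, median log2 fold change -0.004), heat shock proteins and chaperones (18, median 0.02) and cholesterol synthesis (17, median -0.04) had 0 members past both limits and 0 with an unadjusted p under 0.05. Endothelium and pericytes (17, median -0.03) had 0 as well. For the counts that follow, 2.6% of all tested transcripts were higher and 2% lower at an unadjusted p under 0.05. Markers of striatum were above 0 in 8 of 9 tested transcripts (median 0.20), with 1 higher at that limit. Those of thalamus and habenula had a median of 0.11 and 0 at that limit. Of 14 transcripts of neurogenesis and immature neurons, 2 were lower at that limit (median -0.02). These lists had 0 members past both limits. Among 16 transcripts of proliferation, Mki67, a marker of cycling cells, was at 0.16 (higher than the VEH mean in 8 of 8 LEV animals) and Pcna, the replication clamp, at -0.17 (lower in 8 of 8), the 2 members with an unadjusted p under 0.05. Among 21 transcripts of apoptosis and p53 targets, Cdkn1a (0.36, higher in 6 of 8 LEV animals) and Apaf1 (0.10, higher in 6 of 8) were the 2 at that limit. Of 88 transcripts on the study's GABA neuron list, 3 were higher and 3 lower at that limit, near the shares of all tested transcripts. On that list 0 were past both limits and the median was -0.01. The peptide gene Vip of interneurons was at -0.30, with all 8 LEV animals below the VEH mean.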
